A study of Mus musculus with 11 samples.

Results

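Of 10699 genes with a mean of at least 5 CPM (counts scaled to 1000000 reads in genes) in control granulosa cells, 207 (1.93%) lay at or below 65% of their control level with each of 3 pools of siRNAs against Akt1 and at 80% to 125% of it with the fourth pool. The fourth pool, pool 2, was the one without siRNA 7, so these are the genes that were low only where siRNA 7 was present. The count files hold 24490 genes in all. Members were chosen on the measured values themselves, with CPM averaged over both libraries of a pool and over scramble replicates 2 and 3. The levels against scramble and against pool 2 are therefore given as a description, with no test.

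The cells were primary ovarian granulosa cells of RjOrl:SWISS mice, the somatic cells that surround the oocyte, feed it and make oestradiol. They were transfected in culture with 30 pmol of siRNA, the mix was replaced at 5 h, and RNA was extracted at 30 h. Pool 3 held siRNAs 6, 7 and 9, pool 1 held 6, 7 and 8, pool 4 held 7, 8 and 9, and pool 2 held 6, 8 and 9, with 2 libraries from each pool. The control, called scramble, was a nontargeting siRNA and had 3 libraries. All 4 pools were aimed at the same gene, Akt1, so no pool is a control for Akt1 knockdown, and the scramble cells carried no Akt1 siRNA. Matching the pool numbers of the protocol to those of the sample titles is an assumption. Only pool 2 lacked siRNA 7, so the lack of siRNA 7 and any other property of pool 2 cannot be told apart.

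An siRNA is a short duplex whose guide strand is loaded into an Argonaute protein and cuts the transcript it pairs with along its whole length. A guide can also lower other transcripts through its seed, bases 2 to 8, which pairs with short matches in 3' untranslated regions (3' UTRs) in the manner of a microRNA. Such effects belong to the sequence of one siRNA and not to the gene it is aimed at, and pools are used to dilute them. No sequence of siRNA 7 is given in the sources used here, so nothing below was compared with it.

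Libraries held 23851293 to 32643158 reads in genes. Akt1, the shared target, lay at 19.5% of scramble with pool 3, 14.8% with pool 1, 14.2% with pool 4 and 13.0% with pool 2, so it was low with pool 2 as well. Scramble replicate 1 was unlike the rest, with short transcripts higher and long ones lower in it, and the rule left it out. Its value is given first of the 3 scramble values throughout. Of 8 granulosa markers that were tested and are not members, 6 were lower in pools 3, 1 and 4 than in pool 2. Of the same 8, 0 were higher (edgeR, adjusted p below 0.05). Over all genes tested 25.3% were lower. The sizes were uneven. Hsd17b1 was at 48.7% of scramble with pool 3, 65.2% with pool 1, 59.5% with pool 4 and 86.6% with pool 2. Inhbb was at 76.2%, 69.8%, 65.5% and 99.0% in the same order. Inha, a subunit of inhibin, was at 1302 CPM with pool 3, 1787 with pool 1, 1719 with pool 4, 1997 with pool 2 and 2242 in scramble replicates 2 and 3. Foxl2, a transcription factor of granulosa cells, was at 117 CPM with pool 3, 144 with pool 1, 153 with pool 4, 151 with pool 2 and 142 in scramble. The receptor gene Fshr, at 0.134 CPM in scramble, Amh, at 0.307, and the aromatase gene Cyp19a1, at 2.88, were low. Summed markers of macrophages and leukocytes were at 12.4 CPM or less in every library, those of endothelium at 19.3 or less and those of oocytes at 2.14 or less, with the leukocyte gene Ptprc and the oocyte genes Zp1, Zp2, Zp3, Figla and Nlrp5 under 0.1 CPM. Of 4 macrophage and leukocyte markers tested, 1 was higher in pools 3, 1 and 4 than in pool 2 and 0 were lower. For endothelium 2 of 5 were higher and 0 lower, and the 1 oocyte marker tested was higher (edgeR, adjusted p below 0.05). Over all genes tested 22.3% were higher. These genes were Csf1r, Kdr, Tek and Gdf9, each at 5.51 CPM or less in scramble. Markers of surface epithelium summed to 343 to 388 CPM in pools 3, 1 and 4, 376 to 402 in pool 2 and 346 to 643 in scramble. Of 7 of them 3 were lower in pools 3, 1 and 4 than in pool 2 (edgeR, adjusted p below 0.05), as were 25.3% of all genes, and 0 were higher. Among them the uroplakins Upk3b and Upk1b had log2 fold changes of −0.70 and −0.58, while the keratins Krt8 and Krt18 did not pass the test. Their part in the results was not tested. In RNA from bulk cells, fewer cells of a kind and less RNA per cell cannot be told apart.

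One 7-letter word stood out in the members' 3' UTRs. Among 2252 words found in at least 20% of the members' longest annotated 3' UTRs (GENCODE M21, read on the mRNA strand only), GTGCCAC had the largest ratio of density in members to density in other genes. It occurred at 0.373 sites per kb in the members and 0.0691 sites per kb in the 10300 other genes at 5 CPM or more, a ratio of 5.41. The word was present in 132 of the 207 members (63.8%) and in 1095 of the other genes (10.6%). The next word, TGCCACA, overlaps it in 6 letters and had a ratio of 2.95. The word was picked on the members, so these shares are a description with no test. The stretches below show it, in capitals, in the 3' UTRs of the 4 genes that mark the set, of 4 further members described later and in Akt1 itself, each from the mRNA strand in mm10 coordinates.

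Ei24, chr9:36779406-36779435, minus strand: gttctggacaaGTGCCACtgcatcatagta
Cldnd1, chr16:58733195-58733224, plus strand: atttatatacaGTGCCACtaaataccattt
Cldnd1, chr16:58733733-58733762, plus strand: caggattttcaGTGCCACcaaaccattgtg
Tph1, chr7:46647177-46647206, minus strand: atatagttcacGTGCCACgtgatgcccagg
Tph1, chr7:46645046-46645075, minus strand: ttcatgttacaGTGCCACatacacttataa
Ap3m1, chr14:21035905-21035934, minus strand: ccatcaatcttGTGCCACtagttcagctgt
Pcbd1, chr10:61094058-61094087, plus strand: gacctttctctGTGCCACtctcctcactgg
Myl12b, chr17:70974223-70974252, minus strand: ggacctactgcGTGCCACttagtttctcag
Myl12b, chr17:70974174-70974203, minus strand: gggcctactgtGTGCCACttagttgagagc
Rhoa, chr9:108337355-108337384, plus strand: ctgtgtaattaGTGCCACttaatgtatgtt
Srf, chr17:46548765-46548794, minus strand: ccgatgggactGTGCCACcttcccactcac
Akt1, coding sequence, chr12:112657099-112657128, minus strand: gatcaaggacgGTGCCACtatgaagacatt

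In Akt1 the word occurs once in the coding sequence and is not in the 3' UTR. Of 1738 mature mouse microRNAs in the RefSeq table, 0 have bases 2 to 8 complementary to the word. A match describes letters in a transcript and does not show that anything binds there. The stretches come from the longest annotated 3' UTR of each gene. In the shortest one, the word is absent from Tph1, Ap3m1 and Pcbd1, and Cldnd1 has 1 copy. Which 3' UTR the cells used was not measured.

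Genes with the word that are not members also had lower medians in the 3 pools that held siRNA 7, though nearer to scramble. The 1095 such genes had a median of 94.3% of scramble with pool 3, 97.0% with pool 1, 96.0% with pool 4 and 101.9% with pool 2. The 9205 other genes without the word had medians of 107.1% with pool 3, 105.3% with pool 1, 105.1% with pool 4 and 101.2% with pool 2. Among genes that are not members, the 119 with 2 or more words had lower medians still, 89.4% with pool 3, 91.6% with pool 1, 90.5% with pool 4 and 100.9% with pool 2. Medians with pool 2 thus lay between 100.9% and 101.9%, whatever the number of words. Genes share libraries, so these medians are a description across genes. Neither these groups nor the classes of level below were matched for 3' UTR length, and a longer 3' UTR has more room for the word. The part of length in these medians was not tested.

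**Figure D1:**
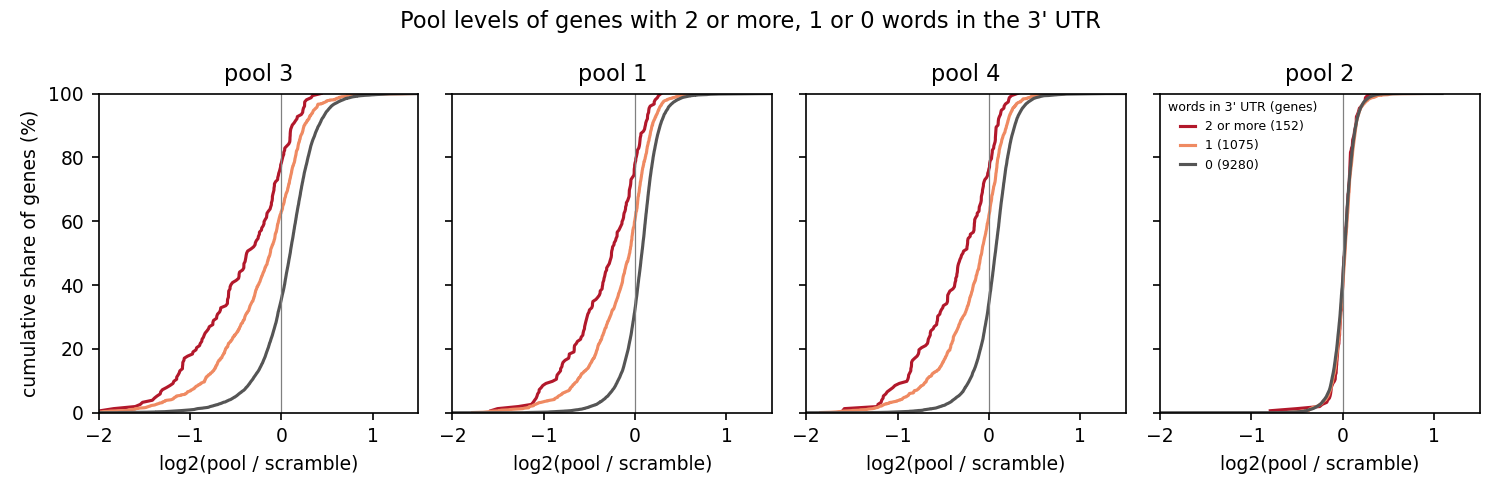
Cumulative share of genes (y axis, %) against the log2 ratio of pool mean to scramble mean (x axis) in pools 3, 1, 4 and 2, for genes at 5 CPM or more, members included, with 2 or more (152 genes), 1 (1075) or 0 (9280) copies of the 7-letter word in the 3' UTR. The lines are ordered by number of copies in pools 3, 1 and 4 and lie on each other in pool 2. Members were chosen on these levels and the word was picked on the members, so part of this pattern was fixed by that choice.

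The share of genes with the word can also be read by level in pools 3, 1 and 4. Below 60% of scramble 191 of 221 genes are members, on which the word was picked, so the high shares there, such as 67.7% of the 65 genes at 40% to 50%, were fixed by that choice. Among genes that are not members, 38.8% of the 240 at 60% to 70% of scramble held the word, and the share was smaller in each next class of level. It was 31.3% of 498 genes at 70% to 80%, 16.7% at 80% to 90%, 8.26% at 100% to 110% and 4.78% at 120% or more. Only 30 genes that are not members lay below 60%, and 10 of them held the word.

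**Figure D2:**
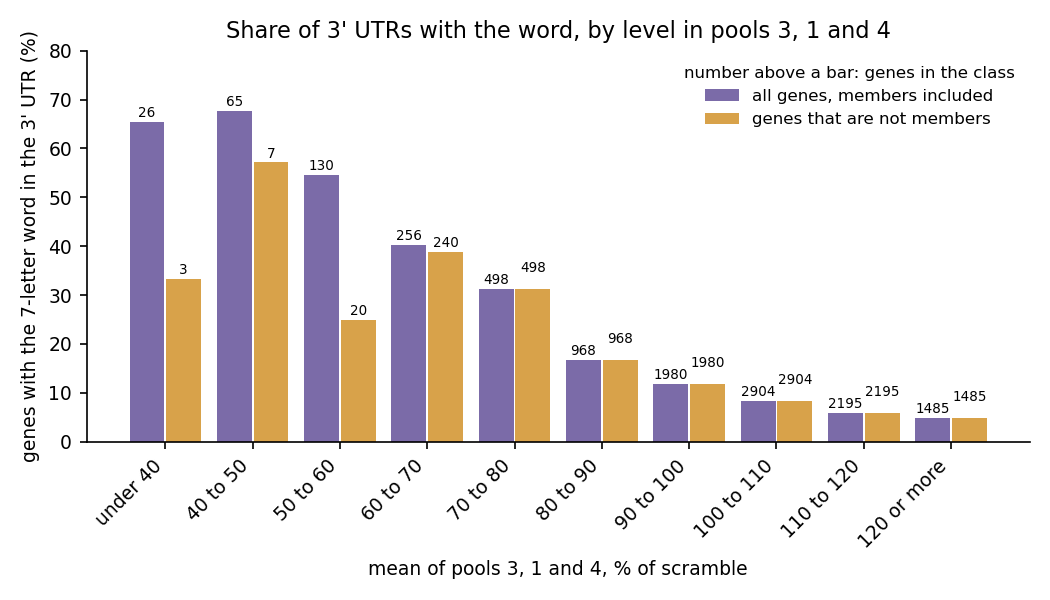
Share of genes with the 7-letter word in the 3' UTR (y axis, %) in 10 classes of the mean level in pools 3, 1 and 4 (x axis, % of scramble), for all genes at 5 CPM or more with members included (purple) and for genes that are not members (orange), with the number of genes above each bar. The orange bars decline from 38.8% at 60% to 70% of scramble to 4.78% at 120% or more, and those further left rest on 20 genes or fewer each.

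In coding sequences the shares lay closer together, with the word in 39 members (18.8%) and 1375 other genes (13.3%). Members without it numbered 75, and of these 42 (56.0%) held one of its 6-letter parts in the 3' UTR, against 43.1% of the other genes without it. One copy was present in 99 members, 2 in 30 and 3 in 3, these last being Nadk, Heca and Fitm2. The median 3' UTR was 1810 bases long in the members and 1254 over all genes at 5 CPM or more, a difference in length that the sites per kb take into account. The shares of genes with the word do not.

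The 4 genes that mark the set serve several processes, with Ei24 and Ap3m1 both sorted below under endosomes, vesicles and autophagy. Ei24, a p53-induced membrane protein of the endoplasmic reticulum that acts in autophagy, lies on chromosome 9 at 36779159 to 36797393 in mm10. Ei24 had 32.3 and 32.2 CPM with pool 3, 38.3 and 35.4 with pool 1, 34.3 and 36.3 with pool 4 and 140.4 and 135 with pool 2, against 148, 126 and 127 in scramble. Every library of pools 3, 1 and 4 was far below all 5 others. Cldnd1, which encodes a membrane protein with a claudin domain (chromosome 16, 58727910 to 58734251), was at 52.5 and 51.6 CPM with pool 3, 71.2 and 66.3 with pool 1, 69.1 and 68.0 with pool 4 and 233 and 222 with pool 2, against 181, 213 and 197 in scramble. Here too the 6 libraries with siRNA 7 did not overlap the other 5, and pool 3 lay below pools 1 and 4.

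Tph1, the rate-limiting enzyme of serotonin synthesis outside the brain, lies on chromosome 7 at 46644641 to 46672537. Its levels were 5.04 and 4.76 CPM with pool 3, 7.55 and 6.89 with pool 1, 6.96 and 8.11 with pool 4 and 20.4 and 21.1 with pool 2, against 18.9, 18.6 and 16.4 in scramble. Ap3m1 (chromosome 14, 21031442 to 21052508) encodes the medium subunit of AP-3, the adaptor complex that sorts cargo to lysosomes and related organelles. It was at 24.5 and 24.2 CPM with pool 3, 34.3 and 33.3 with pool 1, 32.2 and 32.0 with pool 4 and 70.6 and 71.8 with pool 2, against 65.9, 68.9 and 75.0 in scramble. For both genes the 6 libraries with siRNA 7 lay below the other 5 and pool 3 lay below pools 1 and 4, while pool 2 was just above scramble for Tph1 and inside its range for Ap3m1. Exons of Ei24 and Ap3m1 overlap a gene on the other strand, and the strand setting of the authors' counting is not given in the sources used here.

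**Figure D3:**
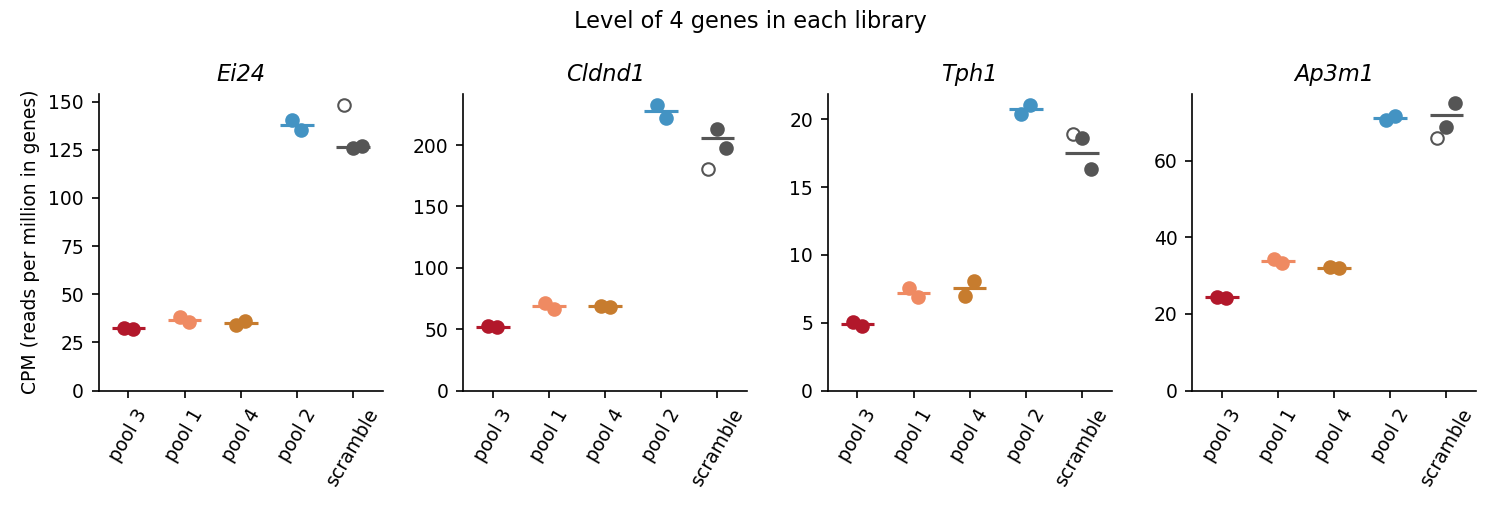
Level of Ei24, Cldnd1, Tph1 and Ap3m1 in CPM (y axis, from 0) in each library of pools 3, 1, 4 and 2 and of scramble (x axis), with bars for group means and the open circle for scramble replicate 1, which the mean leaves out. In all 4 panels the 6 libraries of pools 3, 1 and 4 lie below the other 5, and both pool 3 libraries lie below those of pools 1 and 4.

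Over the 207 members the median level was 45.1% of scramble with pool 3 (range 15.3% to 62.2%), 56.7% with pool 1 (29.1% to 64.99%), 54.4% with pool 4 (27.9% to 64.7%) and 99.4% with pool 2 (81.0% to 119%). Medians over all genes at 5 CPM or more were 105.7% with pool 3, 104.4% with pool 1, 104.0% with pool 4 and 101.2% with pool 2. For every member the 6 libraries of pools 3, 1 and 4 lay below both pool 2 libraries and below scramble replicates 2 and 3. This was so for 15.6% of all genes at 5 CPM or more, and the rule, which used these same libraries, nearly fixes it for the members. Leaving pool 2 aside, 223 genes (2.08%) were at or below 65% in the other 3 pools, so all but 16 of these met the bound on pool 2. Just inside the 65% bound were Bcat1, Bmp2k and Amigo2, with 64.99%, 64.85% and 64.80% in their highest pool, and just outside were Mapk1ip1l, Notch2 and Hsd17b1, with 65.05%, 65.17% and 65.20%.

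The members spanned the range of expression. Their scramble means ran from 5.05 to 2092 CPM with a median of 56.6, against a median of 43.5 over all genes at 5 CPM or more. Per kb of transcript the median was 16.0 CPM per kb in the members and 14.3 over the 10520 genes with an annotated transcript. Relative level differed little with abundance: 3 equal groups of members with low, middle and high scramble CPM had median levels of 53.6%, 51.7% and 52.0% of scramble over the 3 pools. Members lay on 20 chromosomes, with 20 of them (9.66%) on chromosome 11, which holds 8.27% of all these genes. The smallest count of a member in any library was 35 reads, for Lzts1.

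Scramble replicate 1 took no part in the choice of members, but the pool levels set against it here did. The counts below are therefore largely fixed by the rule and are a description. The means of pools 3, 1 and 4 all lay below it for 165 members (79.7%), against 46.1% of all genes at 5 CPM or more. At the 65% bound the counts were 111 members (53.6%) and 18.7% of all genes. Transcript length moved with these counts. Of the 69 members with the shortest transcripts (median 2035 bases) all 69 lay below scramble replicate 1, against 62 of the 69 in the middle (3648 bases) and 34 of the 69 with the longest (6225 bases). The ratio of scramble replicate 1 to the other scramble libraries had a median of 1.37 in the short group, 0.871 in the middle group and 0.563 in the long group.

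The members with the highest CPM, a unit not scaled by length, were genes of the cell surface and its matrix, of contraction and of the secretory pathway. Dag1, which encodes the laminin receptor dystroglycan, was at 1056 and 1131 CPM with pool 3, 1279 and 1228 with pool 1, 1176 and 1226 with pool 4 and 1674 and 1799 with pool 2, against 1044, 2113 and 2071 in scramble. Scramble replicate 1 lay below all 6 libraries with siRNA 7 for this gene, and pool 2, at 83.0% of scramble, lay near the lower bound of the rule. Cemip, needed for hyaluronan breakdown, was at 581 and 573 CPM with pool 3, 997 and 964 with pool 1, 936 and 984 with pool 4 and 1832 and 1762 with pool 2, against 829, 1919 and 1757 in scramble. Its scramble replicate 1 fell between the pool 3 and the pool 1 and 4 libraries.

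Acta2, the actin of smooth muscle, was at 891 and 834 CPM with pool 3, 1054 and 1121 with pool 1, 1036 and 1115 with pool 4 and 1898 and 1805 with pool 2, against 3032, 1948 and 1581 in scramble. The 6 libraries with siRNA 7 lay below the other 5. Its reads may be shared with Actg2, a close paralog that is also a member. Serpine2, an inhibitor of thrombin and plasminogen activators, was at 41.6% of scramble with pool 3, 55.3% with pool 1, 50.6% with pool 4 and 87.7% with pool 2. F11r, a tight junction adhesion molecule, Pdia4, a disulphide isomerase of the endoplasmic reticulum, Papss2, which makes the sulphate donor of glycosaminoglycan sulphation, Ndst1, a heparan sulphate sulphotransferase, and Tns3, which ties integrins to actin, were also among the 10 highest. Their means over the 3 pools were between 43.9% and 60.6% of scramble. For Ndst1 and Tns3 scramble replicate 1, at 77.5 and 181 CPM, lay below all 6 libraries with siRNA 7. The lowest of those 6 were at 198 CPM for Ndst1 and 230 CPM for Tns3.

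The lowest mean level over pools 3, 1 and 4 was that of Cdo1, cysteine dioxygenase, the enzyme that starts the breakdown of cysteine towards taurine, though Ei24 was lower in pools 1 and 4. Cdo1 was at 7.94 and 8.09 CPM with pool 3, 16.6 and 16.4 with pool 1, 17.1 and 17.6 with pool 4 and 46.5 and 47.7 with pool 2, against 78.5, 50.9 and 53.9 in scramble. Pool 3 lay at 15.3% of scramble, the lowest value of any member in any pool. Pcbd1, which recycles the tetrahydrobiopterin cofactor that Tph1 uses, was at 3.79 and 3.57 CPM with pool 3, 4.88 and 4.56 with pool 1, 4.34 and 4.58 with pool 4 and 16.4 and 15.1 with pool 2, against 29.5, 13.9 and 14.6 in scramble. Nme1, a nucleoside diphosphate kinase, was at 44.0 and 41.8 CPM with pool 3, 52.2 and 49.8 with pool 1, 48.7 and 51.7 with pool 4 and 150.2 and 149 with pool 2, against 412, 164 and 149.6 in scramble. For both genes scramble replicate 1 stood at or above 2 times the other scramble values.

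Aprt, the enzyme of adenine salvage, was at 31.7% of scramble with pool 3, 35.8% with pool 1, 33.1% with pool 4 and 97.6% with pool 2. Myl12b, a regulatory light chain of non-muscle myosin, was at 33.0%, 35.2%, 33.0% and 106% in the same order, though its reads may be shared with the paralog Myl12a. Gng7, a G protein gamma subunit, lay between 1.63 and 2.35 CPM in the 6 libraries of pools 3, 1 and 4 and between 5.36 and 6.00 CPM in the other 5. Gpr165 was the exception among the lowest 10, since scramble replicate 1, at 2.30 CPM, lay below all its pool values. Car14, a membrane-bound carbonic anhydrase, was at 22.3% of scramble with pool 3, 42.6% with pool 1, 37.0% with pool 4 and 95.6% with pool 2.

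Sorted by role, the members covered most parts of the cell, and no role held a majority. The roles were assigned by hand after the members were known, and members named from here on beyond those above were chosen as examples after their values were seen. Contraction and the actin cytoskeleton took 19 members, of which 9 hold the word, beside 63.8% of all members and 10.6% of other genes. Their medians were 44.2% of scramble with pool 3, 56.8% with pool 1, 54.2% with pool 4 and 104.9% with pool 2. They included Rhoa, the GTPase that drives stress fibres, at 39.0% of scramble with pool 3, 48.0% with pool 1, 48.1% with pool 4 and 98.3% with pool 2. Srf, the transcription factor that drives many actin genes, was at 44.2%, 52.9%, 50.8% and 97.9% in the same order. Genes that SRF is known to drive in smooth muscle stood beside them: Myh11, Myl9, Mylk, Lmod1, Actg2 and Acta2. Rhoa, Srf, Myh11 and Lmod1 hold the word, and Myl9, Mylk, Actg2 and Acta2 do not. The 10 theca and stroma markers summed to 1058 to 1416 CPM in pools 3, 1 and 4, 2121 to 2188 CPM in pool 2 and 1903 to 3286 CPM in scramble. Acta2, a member, made up most of that sum, and the other 9 summed to 213 to 295 CPM in pools 3, 1 and 4, 290.04 to 316 CPM in pool 2 and 254 to 322 CPM in scramble. Of 7 of these 9 that were tested against pool 2, 3 were lower and 0 higher, beside 25.3% of all genes lower. The 3 were Tcf21, Ptch1 and Dcn, with log2 fold changes of −0.62, −0.54 and −0.37. Tcf21 was at 1.72 CPM with pool 3, 1.48 with pool 1, 1.79 with pool 4, 2.44 with pool 2 and 1.78 in scramble, so pool 2 lay above scramble for it. Ptch1 was at 70.8% of scramble with pool 3, 72.1% with pool 1, 70.8% with pool 4 and 99.2% with pool 2. Dcn was at 60.1%, 94.5%, 94.6% and 101.2% in the same order. Pdgfra was at 107% of scramble with pool 3, 108% with pool 1, 104% with pool 4 and 97.1% with pool 2, and the theca genes Insl3 and Cyp17a1 were at or below 0.301 CPM in every group mean. The part of these cells in the result was not tested.

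Endosomes, vesicles and autophagy took 15 members, of which 13 hold the word, with medians of 38.6% with pool 3, 48.3% with pool 1, 50.6% with pool 4 and 100.3% with pool 2. Among them were parts of the ESCRT machinery, which sorts membrane proteins into multivesicular bodies. Vps25 was at 37.4%, 41.1%, 39.5% and 100.9% of scramble in pools 3, 1, 4 and 2. Chmp7, Vps37b and Vps37c belong to the same machinery, and Chmp7 was at 36.4%, 38.2%, 37.6% and 99.6%. Vamp3, a SNARE of recycling endosomes, and Atg5, which is needed for lipidation of LC3, stood at 34.9% and 38.6% in pool 3 and at 105.8% and 99.2% in pool 2.

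Metabolic enzymes took 21 members, of which 16 hold the word. Their medians were 38.2% with pool 3, 48.2% with pool 1, 45.7% with pool 4 and 96.0% with pool 2, with Cdo1, Pcbd1, Nme1, Aprt, Car14 and Tph1 among the lowest. Cbs, which feeds cysteine synthesis, and Cdo1, which removes cysteine, were both members. Hsd11b2, which inactivates glucocorticoids, was at 34.6% of scramble with pool 3, 54.9% with pool 1, 45.7% with pool 4 and 99.9% with pool 2, and has no copy of the word. Smpd3, a neutral sphingomyelinase, was at 24.7%, 46.2%, 42.9% and 103.9%.

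Protein folding and glycan synthesis took 18 members, of which 14 hold the word, with medians of 47.0% with pool 3, 57.6% with pool 1, 54.5% with pool 4 and 97.8% with pool 2. Ppib, a prolyl isomerase of the endoplasmic reticulum, was at 33.0%, 47.8%, 46.0% and 101.2%. Plod1, a lysyl hydroxylase of collagen, and the Golgi enzymes Man2a2, B4galt1 and St6gal1 were in this group. Matrix, adhesion and guidance took another 18, of which 10 hold the word, with medians of 43.8%, 57.0%, 52.7% and 97.9%. The guidance genes Robo1, Sema6d and Sema3d and the cadherin Cdh3 were among them.

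Signalling took 23 members, of which 14 hold the word, with medians of 46.7% with pool 3, 58.5% with pool 1, 57.9% with pool 4 and 97.2% with pool 2. It held 2 genes of the activin pathway, which acts in granulosa cells: Fst, the activin antagonist follistatin, at 43.9%, 57.6%, 53.4% and 98.3% of scramble, and the activin receptor Acvr1b at 54.3%, 59.4%, 58.7% and 111.8%. Nras, a RAS GTPase, was near the same level in the 3 pools, at 54.1%, 54.5% and 53.7%, and at 108.8% in pool 2. The 10 granulosa markers, of which Fst is one, summed to 1917 to 2590 CPM in pools 3, 1 and 4, 2758 to 2984 CPM in pool 2 and 3093 to 4025 CPM in scramble, and their part in the result was not tested.

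Transporters and channels took 13 members, of which 10 hold the word, with medians of 43.7%, 58.7%, 54.7% and 96.0% in pools 3, 1, 4 and 2. Abca1, which exports cholesterol, was at 39.7%, 56.5%, 53.3% and 96.0%, and the amino acid transporter Slc7a5 was at 44.1%, 56.7%, 54.7% and 96.0%. Transcription and chromatin took 13 members, of which 7 hold the word. This role had the highest median in pool 3, 49.0%, against 100.1% in pool 2. Foxo1, a transcription factor that Akt1 phosphorylates, was at 51.8% of scramble with pool 3, 59.7% with pool 1, 60.6% with pool 4 and 86.2% with pool 2. Ubiquitin and proteasome genes took 8 members, of which 7 hold the word, among them the cullin Cul2 and the proteasome subunit Psmd7. The 59 members left, of which 32 hold the word, had medians of 45.1%, 56.1%, 54.6% and 101.2%.

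**Figure D4:**
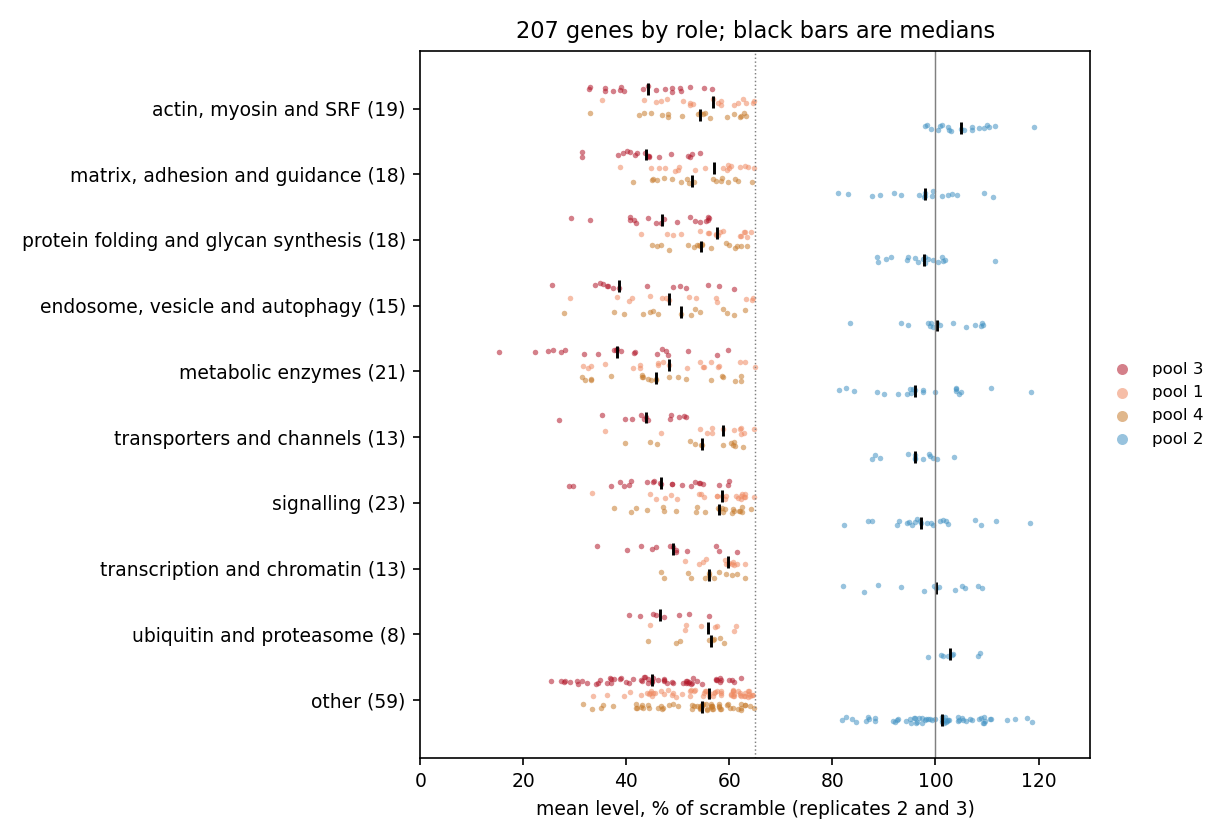
Mean level of each of the 207 members as a percentage of scramble (x axis) in pools 3, 1, 4 and 2, by role (rows, with the number of members). Points are genes, black bars are medians, and the lines mark 100% and the 65% bound of the rule. In all 10 rows the median of pool 3 lies left of those of pools 1 and 4, and pool 2 lies around 100%.

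Among the 3 pools with siRNA 7 the levels were graded, and the rule set no order among them. Pool 3 was the lowest of the 3 for 187 members, pool 4 for 15 and pool 1 for 5. Against the mean of pools 1 and 4, 143 of the 207 members were lower in pool 3 and 2 were higher (edgeR quasi-likelihood test over 14056 genes, two-sided, adjusted p below 0.05). Over all genes tested 29.9% were called, 17.2% lower and 12.7% higher, so pool 3 differed from pools 1 and 4 in many genes, and the members' share of lower calls was 69.1%. The members' median log2 fold change was −0.28, beside −0.00 for all genes. In points of percent of scramble, pool 3 minus the mean of pools 1 and 4 had a median of −8.34, and both pool 3 libraries lay below all 4 libraries of pools 1 and 4 for 154 members, against 23.5% of all genes at 5 CPM or more. With all 11 libraries in a fit of 5 groups, which takes in the spread of scramble replicate 1, edgeR called 2 genes in all and 0 members. In that fit 72 members had an unadjusted p below 0.05, against 7.36% of all genes in it, and the members' median was −0.27. Without scramble replicate 1 that fit called 139 members and 24.7% of all genes.

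Papss2 and Cdo1 had the largest differences. Papss2 was at 223 and 242 CPM with pool 3, 476 and 441 with pool 1, 411 and 456 with pool 4 and 718 and 805 with pool 2, against 556, 769.8 and 816 in scramble. Both pool 3 libraries lay far below the 4 libraries of pools 1 and 4, a log2 difference of −0.97 ± 0.05 (SE; edgeR adjusted p = 2.3e-11), while Cdo1 differed by −1.10 ± 0.07 (SE; edgeR adjusted p = 1.88e-10). Cemip was lower in pool 3 by −0.78 ± 0.03 (SE; edgeR adjusted p = 1.15e-12). Smpd3 had −0.88 ± 0.08 (SE; edgeR adjusted p = 7.83e-08), Car14 had −0.87 ± 0.12 (SE; edgeR adjusted p = 1.21e-05), the Popeye-domain gene Popdc2 had −0.86 ± 0.12 (SE; edgeR adjusted p = 1.62e-05) and Prrt4 had −0.82 ± 0.18 (SE; edgeR adjusted p = 0.00157). Of these, Papss2, Car14, Popdc2 and Prrt4 have no copy of the word.

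The marker genes were graded to different degrees. Tph1 differed by −0.62 ± 0.10 (SE; edgeR adjusted p = 7.68e-05), Ap3m1 by −0.46 ± 0.05 (SE; edgeR adjusted p = 2.05e-07) and Cldnd1 by −0.43 ± 0.04 (SE; edgeR adjusted p = 5.56e-08). Ei24, the lowest of the 4 relative to scramble in pools 1 and 4, differed by −0.19 ± 0.05 (SE; edgeR adjusted p = 0.00364). Among the genes with the lowest levels, 4 did not pass this test: Myl12b had a log2 difference of −0.07 (edgeR adjusted p = 0.196), Aprt −0.14 (0.113), Gng7 −0.29 (0.21) and Gpr165 −0.38 (0.0789).

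Tmed5 and Thbd went the other way. Tmed5, a cargo receptor between the endoplasmic reticulum and the Golgi, was at 61.2 and 56.6 CPM with pool 3, 49.3 and 41.1 with pool 1, 50.9 and 47.7 with pool 4 and 111 and 124 with pool 2, against 63.4, 102 and 109 in scramble. Its scramble replicate 1 lay just above the pool 3 libraries, and it was higher in pool 3 than in pools 1 and 4 by 0.29 ± 0.06 (SE; edgeR adjusted p = 0.000752). Thbd, the thrombin receptor thrombomodulin, was at 95.4 and 96.6 CPM with pool 3, 82.1 and 81.5 with pool 1, 83.3 and 75.8 with pool 4 and 193 and 175 with pool 2, against 127, 186 and 167 in scramble. It was higher by 0.23 ± 0.04 (SE; edgeR adjusted p = 0.000275), and both genes hold 1 copy of the word.

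**Figure D5:**
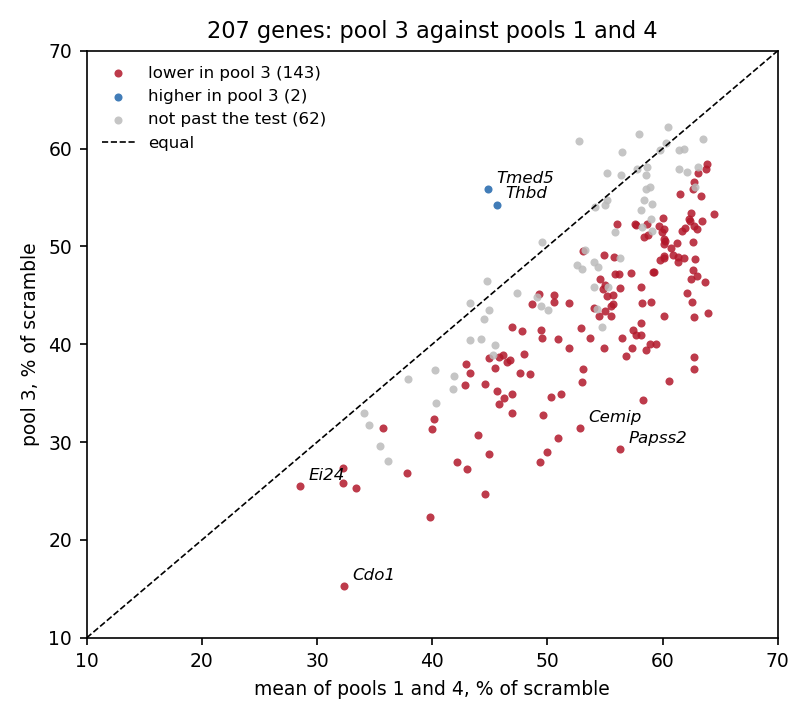
Level in pool 3 (y axis) against the mean of pools 1 and 4 (x axis), both as a percentage of scramble, for the 207 members. Red points were lower in pool 3 (143), blue points higher (2) and grey points did not pass the edgeR test (62), and the dashed line marks equal levels.

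Pools 1 and 4 lay close together. Of the 207 members edgeR called 0 between them, with 18 at an unadjusted p below 0.05 beside 5.53% of all genes, while DESeq2 and limma-voom also called 0. Over all genes 4 were called (0.0285%). The difference between these pools had a median size of 2.15 points of percent of scramble and was largest for Klf5, at 11.7 points. A test of any difference among the 3 pools called 135 members (65.2%), against 23.9% of all genes. The gradation was present with and without the word: members with it had a median log2 difference between pool 3 and pools 1 and 4 of −0.25, with 89 of 132 lower, and members without it had −0.36, with 54 of 75 lower. Over all genes at 5 CPM or more, 36.1% of those with the word and 19.7% of those without it were lower in pool 3.

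By role, lower levels in pool 3 were called for 16 of 19 contractile genes, 16 of 18 matrix and adhesion genes, 15 of 18 folding and glycan genes and 12 of 13 transporters. The counts were 14 of 21 metabolic enzymes, 13 of 23 signalling genes, 8 of 15 vesicle and autophagy genes, 8 of 13 transcription genes, 5 of 8 ubiquitin genes and 36 of the 59 members left. These counts stand beside 69.1% of all members and 17.2% of all genes tested, and no difference between roles was tested. Members of the vesicle and ubiquitin roles with near-equal levels in the 3 pools included Chmp7 (36.4% of scramble with pool 3, 38.2% with pool 1, 37.6% with pool 4) and Ube2b, a ubiquitin-conjugating enzyme (42.6%, 44.6% and 44.3%).

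Other genes of the markers' pathways, taken from lists and not from how they moved, were set against pool 2. Of all genes tested 47.6% were called for pools 3, 1 and 4 against pool 2, 25.3% lower and 22.3% higher. All 207 members were called lower there, which the rule fixes. Of 20 other genes of the AP-3 and BLOC complexes, which share the sorting route of Ap3m1, 10 were lower and 2 higher, with a median log2 fold change of −0.12. Hps3, a BLOC-2 subunit that holds the word once, had −0.32 ± 0.06 (SE, edgeR adjusted p = 0.000186). Of the 4 among these 20 that hold the word, Hps3, Ap3s2 and Bloc1s3 were lower. Ap3m2 did not pass (−0.12, edgeR adjusted p = 0.1). Of 12 genes of the related AP-1 and AP-2 adaptors, 7 were lower and 1 higher, and 0 of the 11 with a 3' UTR in the comparison hold the word.

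Of 36 other core autophagy genes, 16 were lower and 5 higher, with a median of −0.06. The kinase Ulk1 had the largest fall, −0.63 ± 0.03, followed by Atg7, the E1-like enzyme, at −0.54 ± 0.05, and the protease Atg4b at −0.52 ± 0.03 (SE, edgeR adjusted p at or below 2.05e-08 in each). Ulk1 does not hold the word. Of the 4 among these 36 that do, Atg7, Atg4b and Atg2a were lower. Rb1cc1 did not pass (0.05, edgeR adjusted p = 0.228). Of 9 serotonin genes other than Tph1 and Pcbd1, the transporter Slc6a4 was lower (−0.49 ± 0.13, edgeR adjusted p = 0.00387) and the pterin reductase Qdpr higher (0.11 ± 0.04, edgeR adjusted p = 0.0332), and 7 did not pass. Slc6a4 was at 1.73 CPM with pool 3, 2.32 with pool 1, 3.10 with pool 4, 3.13 with pool 2 and 3.55 in scramble. Of 12 claudin family genes 3 were lower and 3 higher, and of 28 genes of the small RNA silencing machinery 11 were lower and 4 higher. In the last list Ago4, an Argonaute, had −0.62 ± 0.10, and Cnot6, a deadenylase subunit, had −0.61 ± 0.03, and each holds the word once. Ago4 was at 69.1% of scramble with pool 3, 92.2% with pool 1, 94.4% with pool 4 and 125% with pool 2. Of the 7 genes of this list that hold the word, Ago4, Cnot6, Ago3, Xrn1, Tnrc6c and Ddx6 were lower. Cnot6l was higher (0.09 ± 0.03, edgeR adjusted p = 0.033). These counts are to be read beside the 25.3% of all genes that were lower.

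In the authors' deposited table, which compares all pools with scramble, the log2 fold changes of all 207 members are below 0, with a median of −0.47. Ei24 is at −0.91, Ap3m1 at −0.55, Tph1 at −0.47 and Cldnd1 at −0.42 in the authors' deposited table. Of the 187 members with an adjusted p there, 51 (27.3%) are below 0.05, against 9.72% of all genes with one. The rule used most of these same libraries, so the authors' values are no independent look at the members.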

How the data were processed

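Per the submitters' processing notes the tools were TopHat2 and featureCounts 1.5.0-p2 on mouse build mm10, with cutadapt 1.9.1, bcl2fastq 2.15.0, FastQC 0.11.5 and DESeq2 also named; strand and other settings are not stated. Libraries came from 1.3 µg of total RNA and a stranded mRNA kit, read as single 75-base reads, per the labels. Each deposited file gives raw counts of reads per gene symbol, which the authors left unnormalized. The authors' deposited table of pools against scramble holds a mean signal per gene, log2 fold changes, a Wald score and p-values, whose design is not stated; only its log2 fold changes and adjusted p-values were used.

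The 92 ERCC spike-in lines (0.268% to 0.788% of counts) were left out. The members, gene lists and tests were chosen with earlier results of these data known, and role groups after the members were seen. The test was that of edgeR 4.0.16 under R 4.3.3 (TMM, filterByExpr, 14056 genes, quasi-likelihood, two-sided, Benjamini-Hochberg adjusted p below 0.05) in 1 fit of the 8 pool libraries. Whether replicates came from separate cultures is not in the labels; p-values therefore cover only the spread among these libraries, possibly a technical one. Replicates differed by more than sampling noise (chi-square per degree of freedom 2.72 to 4.51). The fit was tried on simulated counts.

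Named genes were the 4 markers, the 10 members highest in scramble, the 10 with the lowest mean level in pools 3, 1 and 4, up to 6 largest called differences between pool 3 and pools 1 and 4 in each direction, and the 3 on each side of the 65% bound; predicted and Rik genes were passed over, and a gene that this rule names is not reported here. From the lists, up to 3 called genes that are not members were eligible. Of the members 203 matched GENCODE M21 by symbol and 4 by synonym; the annotation release the authors used is not given. Exons of 18 members overlap another gene on the same strand and those of 52 a gene on the other strand, and such reads cannot be separated. Pdia4, Nme1, Myl12b and Popdc2 are among those with overlap on the same strand. Ei24, Ap3m1, Car14, Smpd3, Tmed5, Bcat1, Bmp2k and Amigo2 are among those with overlap on the other strand. Alternatives were RLE scaling, other filters, DESeq2 1.42.0, limma-voom (limma 3.58.1), a 5-group fit, a replicate block and each library left out.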

Additional observations from a re-analysis of the deposited data

Results flagged for a closer look

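The difference between pool 3 and the mean of pools 1 and 4, 3 pools that share siRNA 7, was called with edgeR's quasi-likelihood test for 145 members and 29.9% of all genes, and the named genes with the largest such differences are given here. Papss2 had a log2 fold change of −0.97 ± 0.05 (SE; edgeR adjusted p = 2.3e-11) and Cdo1 had −1.10 ± 0.07 (1.88e-10), with both pool 3 libraries below all 4 libraries of pools 1 and 4. Smpd3 had −0.88 ± 0.08 (7.83e-08), Car14 −0.87 ± 0.12 (1.21e-05), Popdc2 −0.86 ± 0.12 (1.62e-05) and Prrt4 −0.82 ± 0.18 (0.00157). For Prrt4 a pool 4 library, at 3.48 CPM, lay nearer to the pool 3 libraries, at 3.05 and 2.98 CPM, than to the other pool 4 library at 6.27 CPM. Tmed5 (0.29 ± 0.06, 0.000752) and Thbd (0.23 ± 0.04, 0.000275) were higher in pool 3, also without overlap. In the fit of all 11 libraries none of these 8 genes passed edgeR's threshold. Exons of Popdc2 overlap another gene on the same strand, and those of Smpd3, Car14 and Tmed5 a gene on the other strand. The cause of the differences between pool 3 and pools 1 and 4 was not tested.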

How the results depend on the processing

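Pool 3 against the mean of pools 1 and 4 gave 4204 calls over all genes with edgeR, 2760 with DESeq2, 2 in the 5-group fit of all 11 libraries and 2463 to 4238 with 1 library left out, with 2463 without pool 3 replicate 1. Any difference among pools 3, 1 and 4 gave 3356 calls, 2150 with DESeq2, 0 with all 11 libraries (612 at an unadjusted p below 0.05) and 1874 to 3430 with 1 library left out. Pool 1 against pool 4 gave 4 calls, 41 with no low-count filter, 0 with all 11 libraries (85 unadjusted) and 2 to 37 with 1 library left out. Pools 3, 1 and 4 against pool 2 gave 6692 calls, 743 with all 11 libraries and 5145 to 6567 with 1 library left out.

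For the members, all 11 libraries left 0 lower, 0 higher and 0 differing among the 3 pools, with 72 of 207 at an unadjusted p below 0.05 in the first test (7.36% of all genes). Members lower in pool 3 numbered 114 to 145 with 1 library left out. With no low-count filter 1 member differed between pools 1 and 4. Of the 30 named genes, 26 kept call and direction in every setting except the fit of all 11 libraries. The cause was not tested, beyond that the fit of all 11 libraries adds scramble replicate 1: without it the 5-group fit gave 3469, 2582, 3 and 6149 calls. The replicate numbers did not pair the libraries (correlations of deviations −0.05 to 0.08), and a replicate block gave 4184, 3296, 4 and 6693 calls.

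A bound of 60% in place of 65% left 135 members and one of 70% gave 295, with the word in 66.7% and 59.5% of them. Scaling by TMM gave 255 members and all 3 scramble libraries 160, and 195 to 212 remained by number with 1 library left out. In the 3 pools with siRNA 7, 53.6% of members had all means at or below 65% of scramble replicate 1. The share of all genes at 5 CPM or more was 18.7%. The leading word of 6 letters, TGCCAC, was in 79.2% of the members' 3' UTRs and 35.3% of those of other genes, a density ratio of 2.56. That of 8 letters, GTGCCACA, was in 28.5% and 3.17%, a ratio of 7.50. The leading 7-letter word of coding sequences, TGCAGTC, was in 20.3% of those of members and 15.4% of those of other genes, a ratio of 1.86. In the shortest 3' UTR of each gene, an alternative chosen after seeing the data, GTGCCAC led again. It was in 46.6% of those of members and 6.67% of those of other genes. With 2 libraries a pool, small differences are within the spread, and members near 5 CPM carry the widest counting error.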
